A study of Homo sapiens with 32 samples.

Results

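The genes of MHC class I antigen presentation described here were 9 of the 60107 genes counted: the heavy chains HLA-B, HLA-C, HLA-E and HLA-F, the shared light chain B2M, the peptide transporter subunits TAP1 and TAP2, the loading factor TAPBP (tapasin) and the class I transactivator NLRC5. They were chosen by name, and each name matched exactly 1 row of the tables. All 9 passed the filter on low counts.

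MHC class I molecules present peptides from the inside of the cell to CD8+ T cells and carry ligands for receptors of natural killer cells. Peptides are cut by the proteasome, pumped into the endoplasmic reticulum by the TAP1-TAP2 transporter and loaded, with the help of tapasin, onto a heavy chain bound to β2-microglobulin. Many of these genes are known interferon targets, through STAT and IRF transcription factors and through NLRC5.

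The libraries came from THP-1 cells, a human monocytic leukemia line, in which ATP-citrate lyase (ACLY), the enzyme that makes acetyl-CoA from citrate in the cytosol, had been knocked out. KO cells carried the knockout, and the WT, HA and SA lines were knockout cells transduced with a lentiviral vector, under an EF promoter and puromycin selection, that encoded wild type ACLY, the catalytically inactive H760A mutant or the phosphorylation-deficient S455A mutant. The comparisons thus asked how loss of ACLY, of its activity or of serine phosphorylation moved these transcripts, with and without lipopolysaccharide (LPS). Each line was left untreated or given LPS, at 100 ng/ml for 3 hours according to the labels. The figure legend of the study for these comparisons gives the same dose, while its general treatment methods give another concentration. This gave 8 groups of 4 libraries. There was 1 line per genotype, so that genotype and line cannot be told apart, and the sources do not say whether KO cells received an empty vector. The labels do not say whether the 4 libraries of a group were separate cultures, and the methods speak of independent experiments without naming these libraries, so the p-values measure the spread between libraries, which may be technical.

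Depth was 6504099 to 14750815 reads on genes per library. Of 12 monocytic markers all had a mean of at least 10 normalized counts in every group, while the summed counts of the T cell and erythroid markers did not pass 0.837 and 1.75 in any library. In 7 of the 8 groups the library with the fewest genes detected at equal depth also had the lowest level of TAP2, and SA LPS replicate 1 stood farthest from its group, with 13289 genes detected compared with 17030 or more in the other 3. Levels below are normalized counts on a scale shared by all 32 libraries, and differences are in log2(normalized count + 1). A gene is said to have risen or fallen where limma's adjusted p over the 12406 genes tested was below 0.01. In the comparisons of a line with WT, the libraries of both groups did not overlap in 2.61% to 17.6% of all genes tested.

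Of the 9 genes, 7 lie on chromosome 6, B2M on chromosome 15 and NLRC5 on chromosome 16. For 7 of them the RefSeq promoter table (GRCh38.p14) held the 250 bases before the start; it held none for HLA-E and NLRC5. These windows were searched on both strands for GAAANNGAA, a core of interferon-stimulated response elements, and, after the sequences had been seen, for the related spacing GAANNGAAA. GAAANNGAA was found in 5 of the 7, compared with 6.88% of all 35116 promoter windows in the table. With the second spacing, which was added because of these sequences, all 7 held at least 1 of the pair, compared with 12.4% of all windows. The 30 bases around each match are shown because they carry the feature that the promoters shared, with the matched bases in capitals (5′ to 3′ on the strand of the gene):
HLA-B: actcccctgagTTTCACTTCttctcccaac
HLA-C: actcccctgagTTTCACTTCtcccaacctg
HLA-F: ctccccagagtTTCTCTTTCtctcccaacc
B2M: gactctaaGAAAAGGAAACTGAAaacggga
TAP1: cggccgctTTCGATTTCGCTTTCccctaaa
TAP2: tggctgggGAAGCGAAAGCGAAagctgccc
TAPBP: ccctttggagGAAAGTGAAAGTGAAaggag

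The 30-base stretch lay at chr6:31357316-31357345 for HLA-B, chr6:31272225-31272254 for HLA-C, chr6:29723268-29723297 for HLA-F and chr15:44711365-44711394 for B2M. It lay at chr6:32853816-32853845 for TAP1, chr6:32838781-32838810 for TAP2 and chr6:33314079-33314108 for TAPBP. HLA-F and B2M were on the plus strand and the other 5 on the minus strand. In GENCODE the capitals of B2M and TAPBP lie in exons of the same genes, those of TAP2 in an exon of the overlapping gene ENSG00000250264, and those of HLA-B and HLA-F in exons of ENSG00000271581 and ENSG00000225864. Those of HLA-C lie partly in an exon of ENSG00000288813, and those of TAP1 lie outside the TAP1 gene model, in no exon, within the gene model of PSMB9. In HLA-B and HLA-C the capitals were GAANNGAAA on the opposite strand, and in HLA-F and TAP1 GAAANNGAA on the opposite strand. B2M, TAP1 and TAPBP each held 2 overlapping GAAANNGAA matches, and TAP2 1 match of each spacing. Of the other motifs, GGGNTTNCC, an NF-κB core, was found in HLA-B and TAPBP and in 4.7% of all windows. TTCNNNGAA, the palindrome bound by STAT dimers, was found only in a second, more downstream TAP1 window among the 8 windows of the 7 genes (6.57% of all), and CCAAT in HLA-B, HLA-C, HLA-F, B2M and TAP1 (32% of all). A match of letters is a description and does not show binding.

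HLA-E, HLA-F and TAP1 were up-regulated in KO compared with WT, both without and after LPS. HLA-E was also up-regulated in HA, whereas none of the 9 passed the test in SA. Without LPS, 3 of the 9 genes were called in KO, compared with 2.9% of all genes tested, and 1 in HA, compared with 2.52%. After LPS the counts were again 3 in KO (3.47% of all genes) and 1 in HA (2.02%). The median log2 fold change of the 9 genes in KO was 0.50, and 0.77 after LPS, compared with -0.03 and -0.01 over all genes. In HA these medians were 0.11 and 0.28, compared with -0.02 and -0.03. In bulk libraries, a change in every cell and a change in the share of cells that express a gene cannot be told apart.

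**Figure D1:**
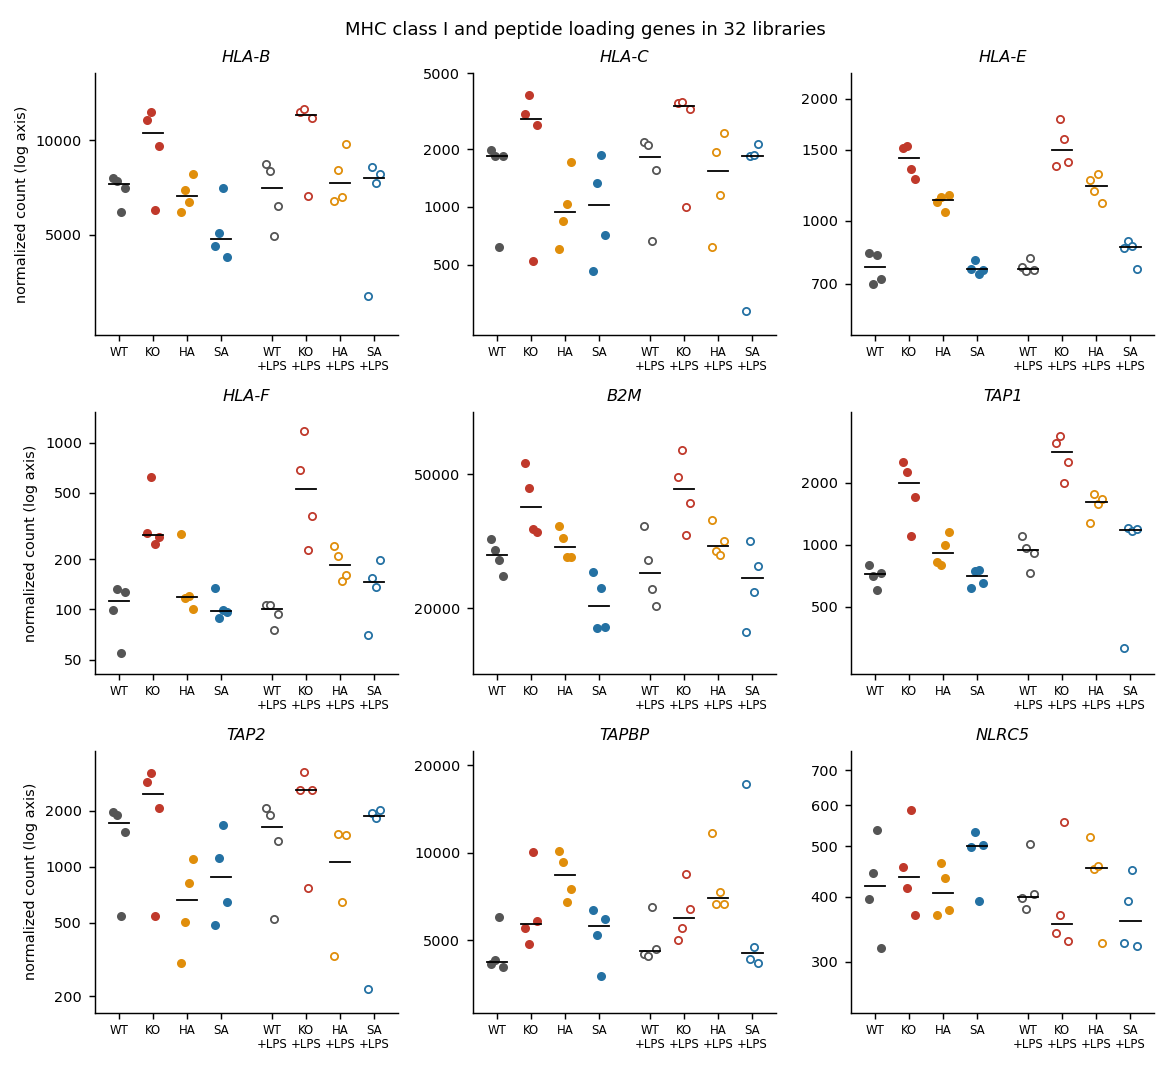
Normalized counts (log axes) of the 9 genes in each library, in WT, KO, HA and SA without LPS (filled) and after LPS (open), with lines at the medians. For HLA-E, every KO and HA library lay above every WT and SA library, while for HLA-C, TAP2 and TAPBP single libraries lay far from the rest of their groups.

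HLA-E (ENSG00000204592; chromosome 6, 30489509 to 30494194, plus strand) encodes a class I heavy chain of little variability that presents leader peptides of other class I molecules to the NKG2A receptor. WT replicates 1 to 4 held 833, 698, 822 and 720 normalized counts and KO 1517, 1527, 1343 and 1268. In HA it had 1112, 1144, 1052 and 1160, and in SA 762, 802, 741 and 758. The KO and HA libraries thus formed groups of their own above WT and SA, which overlapped. On the log2 scale HLA-E rose by 0.88 in KO, with a standard error of 0.10 (limma adjusted p = 4.04e-07). The rise in HA was 0.54, with the same standard error (limma adjusted p = 8.22e-04). In SA the 95% interval of the difference from WT was -0.20 to 0.20.

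After LPS the order was the same. WT libraries lay between 754 and 808 normalized counts and SA libraries between 762 and 894. KO lay between 1369 and 1780 and HA between 1110 and 1302. HLA-E was higher by 0.98 in KO (limma adjusted p = 6.77e-08) and by 0.65 in HA (limma adjusted p = 8.93e-05). By group mean the order from the highest was KO after LPS, KO, HA after LPS, HA, SA after LPS, WT after LPS, WT and SA. Neighbours in this order overlapped in their libraries except at 1 step, between HA, with a lowest value of 1052, and SA after LPS, with a highest value of 894. HLA-E also had the smallest spread within groups of the 9 genes, with a standard deviation of 0.11 on the log2 scale compared with 0.26 to 1.05 for the others. None of the 32 fits that left out 1 library ended its calls in KO or HA. Its calls in HA were lost when only the HA and WT groups were fitted.

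HLA-F (ENSG00000204642; chromosome 6, 29722775 to 29738528, plus strand), a nonclassical heavy chain that can reach the surface without peptide, changed most on the log2 scale. WT had 98.8, 132, 54.9 and 128 normalized counts and KO 287, 625, 246 and 271. After LPS these were 106, 106, 75 and 94.3 in WT and 688, 1174, 226 and 363 in KO. Every KO library lay above every WT library in both conditions, and KO replicate 2 was the highest of each KO group. HLA-F rose in KO by 1.75 without LPS (standard error 0.40, limma adjusted p = 6.41e-03) and by 2.41 after LPS (standard error 0.40, limma adjusted p = 1.43e-04). In HA, HLA-F had a difference from WT of 0.53 (limma adjusted p = 0.41) and, after LPS, of 0.97 (limma adjusted p = 0.20). In HA without LPS, replicate 1 held 283 counts and the others 101 to 121. The KO call without LPS was lost when any of WT replicates 1 and 3 or KO replicates 1, 2 and 4 was left out, with log2 fold changes from 1.44 to 1.84 in these 5 fits. It was also lost on the deposited scale, at 1.65 (limma adjusted p = 1.05e-02), and with voom, at 1.73 (limma adjusted p = 1.92e-02).

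TAP1 (ENSG00000168394; chromosome 6, 32845209 to 32853816, minus strand) encodes a subunit of the peptide transporter. WT libraries had 793, 707, 605 and 729 normalized counts, and KO libraries 2511, 2258, 1104 and 1700. After LPS, WT had 1098, 967, 727 and 905 and KO 3118, 3379, 1999 and 2524. The groups did not overlap in either condition, and replicate 3 was the lowest in each of these 4 groups. TAP1 rose in KO by 1.36 without LPS (standard error 0.29, limma adjusted p = 3.41e-03) and by 1.56 after LPS (limma adjusted p = 6.61e-04). Without LPS, the call was lost when WT replicate 2, 3 or 4 or KO replicate 1 or 2 was left out, with log2 fold changes from 1.20 to 1.37 in these 5 fits. The calls of TAP1 and HLA-F without LPS were also lost when only the KO and WT groups were fitted, while those after LPS were kept.

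In HA, TAP1 had 827, 798, 998 and 1150 normalized counts, all above the WT libraries, as were the 4 after LPS. HA and WT libraries did not overlap in 17.6% of all genes tested without LPS and in 13.5% after LPS. The log2 difference of TAP1 from WT was 0.40 (limma adjusted p = 0.39) without LPS and 0.77 (limma adjusted p = 0.16) after LPS, where HA had 1274 to 1763 counts. With the number of genes detected as a covariate, an alternative added after seeing the data, it was 0.72 (limma adjusted p = 4.12e-03) and 1.11 (limma adjusted p = 2.57e-05).

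TAP2 (ENSG00000204267; chromosome 6, 32821833 to 32838739, minus strand), the other subunit, did not pass the test in any comparison of the shared fit. WT had 1968, 1898, 541 and 1539 normalized counts, KO 2845, 3207, 542 and 2085, and HA 304, 502, 818 and 1095. Replicate 3 of WT and of KO held nearly the same count, far below the other 3 of each group. The log2 difference from WT was 0.43 in KO (95% interval -0.98 to 1.84) and -1.13 in HA (95% interval -2.54 to 0.29). The transporter subunits thus differed in direction in HA, without a test passed by either. With library weights, added after seeing the data, the TAP2 difference in HA was -1.32 (limma adjusted p = 9.07e-03), and with the number of genes detected as a covariate -0.35 (limma adjusted p = 0.58). With that covariate the difference after LPS was 0.20, against -0.65 in the shared fit, and neither passed. The TAP2 gene model lies within a read-through gene model on the same strand (ENSG00000250264), and reads that fall on both models may be missing from its count.

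B2M (ENSG00000166710; chromosome 15, 44711358 to 44718851, plus strand), the light chain of every class I molecule, took 0.297% of the reads on genes in WT and 0.437% in KO. Its WT libraries had 32103, 29853, 27816 and 24864 normalized counts and its KO libraries 54012, 45549, 34274 and 33776. All KO libraries were above all WT libraries without LPS, where these groups did not overlap in 12% of all genes tested. After LPS the groups overlapped, with 20313 to 35199 in WT and 33020 to 58849 in KO. The log2 difference of B2M was 0.53 (standard error 0.21, limma adjusted p = 0.18) without LPS and 0.78 (standard error 0.21, limma adjusted p = 1.76e-02) after LPS. In HA it was 0.11 and 0.28, and in SA -0.47 and -0.12. The KO difference of B2M after LPS passed without SA LPS replicate 1 (limma adjusted p = 7.04e-03). It also passed with the number of genes detected as a covariate and with library weights (limma adjusted p = 4.08e-03 and 2.53e-03), both added after seeing the data. With voom and on the deposited scale it did not pass (limma adjusted p = 1.53e-02 and 4.06e-02). B2M was the reference gene of the Q-PCR in the study.

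HLA-B (ENSG00000234745; chromosome 6, 31353872 to 31367067, minus strand) and HLA-C (ENSG00000204525; chromosome 6, 31268749 to 31272130, minus strand) are classical heavy chains that present peptides to CD8+ T cells. Class I heavy chain genes resemble each other and vary between genomes, so reads may be lost or credited to the wrong member, and these levels are uncertain. HLA-B had 7584, 7434, 5905 and 7041 normalized counts in WT and 11611, 12259, 5976 and 9553 in KO. HLA-C had 1988, 1841, 615 and 1846 in WT and 3063, 3850, 524 and 2672 in KO. For both genes 3 of the 4 KO libraries lay above all WT libraries and KO replicate 3 did not. The log2 differences in KO were 0.45 for HLA-B (limma adjusted p = 0.49) and 0.50 for HLA-C (limma adjusted p = 0.88), and after LPS 0.64 (limma adjusted p = 0.18) and 0.77 (limma adjusted p = 0.65). In HA the differences of HLA-B were -0.05 and, after LPS, 0.18, and those of HLA-C -0.55 and -0.13. On the deposited scale 2 of these 4 values had the other sign, at 0.10 for HLA-B without LPS and 0.03 for HLA-C after LPS.

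TAPBP (ENSG00000231925; chromosome 6, 33299694 to 33314284, minus strand) encodes tapasin, which bridges the transporter and empty heavy chains. WT had 4135, 4266, 6017 and 4046 normalized counts, KO 5529, 4864, 10105 and 5831, and HA 10153, 9282, 6790 and 7497. Replicate 3 was here the highest of WT and of KO, the reverse of its place for TAP2 and HLA-C. All HA libraries lay above all WT libraries without LPS, where these groups did not overlap in 17.6% of all genes tested. The difference of 0.87 on the log2 scale did not pass the test (limma adjusted p = 9.41e-02). With library weights it was 0.90 (limma adjusted p = 8.39e-05), and with the number of genes detected as a covariate 0.50 (limma adjusted p = 2.67e-02). In KO it was 0.47 (limma adjusted p = 0.60) without LPS and 0.33 (limma adjusted p = 0.72) after LPS.

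NLRC5 (ENSG00000140853; chromosome 16, 56989485 to 57083531, plus strand) is the transactivator that binds class I promoters through RFX and related factors. WT libraries ranged from 319 to 538 normalized counts, KO from 368 to 587, HA from 368 to 465 and SA from 393 to 533, so that all groups overlapped without LPS. The log2 difference from WT was 0.11 (95% interval -0.27 to 0.49) in KO and -0.11 (95% interval -0.49 to 0.28) in KO after LPS. Changes of the size seen for HLA-E lay outside these intervals.

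**Figure D2:**
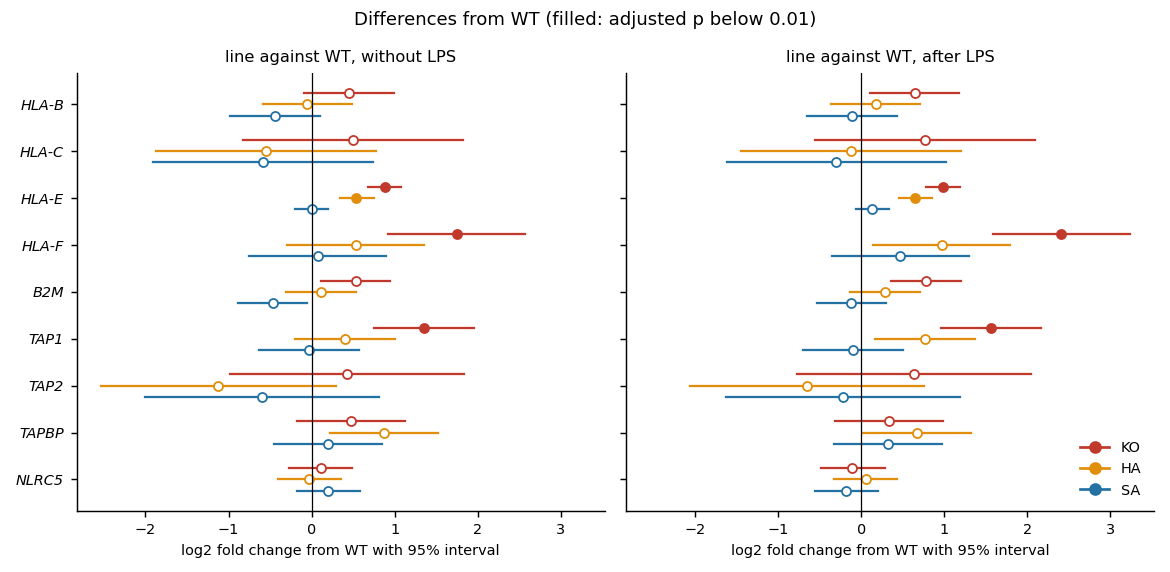
Log2 fold changes from WT of the 9 genes in KO, HA and SA, without LPS (left) and after LPS (right), with 95% intervals of the limma fit. Filled points have an adjusted p below 0.01. HLA-E is filled in KO and HA, HLA-F and TAP1 in KO alone, and the intervals of TAP2 and HLA-C are the widest.

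Same-numbered WT and KO libraries, with and without LPS, deviated together from their group means. The correlations were 0.124 to 0.723 and highest in replicate 3. The KO comparisons were therefore also fitted on their 2 groups with the replicate number as a block. This pairing was read from the data and is not stated in the labels. Whether the block stands for shared cultures or for a property of the libraries was not tested. Without LPS the fit with the block called 4 of the 9 genes (5.84% of all genes tested), with B2M added at 0.53 (limma adjusted p = 9.47e-03). After LPS it called 7 of the 9 (10.8% of all genes tested), all but TAPBP and NLRC5, with B2M at limma adjusted p = 6.71e-04, HLA-B at 5.87e-04, HLA-C at 1.25e-04 and TAP2 at 9.70e-04. Of the 9 genes, 7 were higher in KO in all 4 pairs without LPS, although HLA-B and TAP2 by only 0.02 and 0.00 in replicate 3. After LPS 8 were higher in all 4 pairs, and NLRC5 in 1 of the 4. The share of all genes that were higher in all 4 pairs was not computed, so these counts are a description. HLA-C, for which the fit without the block had given 95% limits of -0.56 and 2.09 after LPS, was higher by 0.68, 0.75, 0.58 and 1.05 in the 4 pairs.

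**Figure D3:**
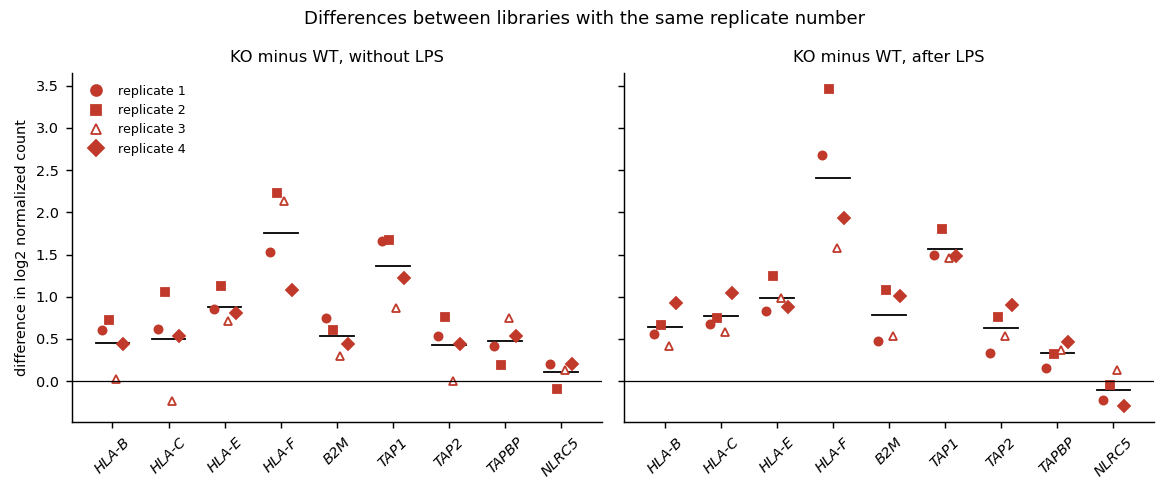
Differences in log2 normalized count between KO and WT libraries of the same replicate number, without LPS (left) and after LPS (right), with lines at the means. After LPS, 8 of the 9 genes lie above 0 in all 4 pairs, and without LPS replicate 3 (open triangles) is lowest for HLA-B, HLA-C, B2M, TAP1, TAP2 and HLA-E.

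None of these genes passed the test in SA. Compared with WT, limma called 0 of the 9 in SA without LPS (0% of all genes tested) and 0 after LPS (0% of all genes tested). The voom fit also called 0 in both. At an unadjusted limma p below 0.05 there was 1 of the 9 without LPS, compared with 445 of the 12406 genes tested. After LPS there were 0 of the 9, compared with 646 of the 12406. The gene with the low unadjusted p was B2M, with 25540, 17496, 22886 and 17584 normalized counts in SA (-0.47, limma adjusted p = 0.998). TAP1, with 617 to 750 counts in SA without LPS, had a difference from WT of -0.03 (95% interval -0.63 to 0.57). After LPS it was -0.10, and 0.38 (95% interval -0.05 to 0.81) without SA LPS replicate 1. On the deposited scale, where a typical gene of SA is shifted by 0.26 without and 0.27 after LPS, HLA-E differed from WT by 0.26 and 0.40 (limma adjusted p = 0.16 and 7.21e-02). TAP1 without and after LPS (0.23 and 0.17) and B2M after LPS (0.14) had the other sign on that scale.

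The KO and HA libraries were also compared with SA, which replaces WT as the control while the KO and HA libraries are those used above. In KO compared with SA, 4 genes rose, HLA-E, HLA-F, TAP1 and B2M, both without LPS (2.86% of all genes tested) and after LPS (2.93%). For B2M the SA libraries had 17496 to 25540 normalized counts without LPS, all below the KO libraries. HLA-E differed by 0.88 and 0.85 (limma adjusted p = 6.14e-07 and 1.22e-06). The log2 difference of B2M was 1.00 (standard error 0.21, limma adjusted p = 2.33e-03) and, after LPS, 0.90 (limma adjusted p = 6.01e-03). HLA-F was near the limit without LPS, at 1.67 (limma adjusted p = 9.90e-03), and reached 1.94 after LPS (limma adjusted p = 2.42e-03). For TAP1 the differences were 1.39 and 1.66 (limma adjusted p = 3.09e-03 and 4.25e-04). Without SA LPS replicate 1, the calls after LPS of B2M (0.74, limma adjusted p = 2.93e-02) and HLA-F (1.65, limma adjusted p = 1.36e-02) were lost, and that of TAP1 (1.18, limma adjusted p = 4.72e-04) was not. There were also 2 calls in place of 4 when KO LPS replicate 1 or 2 was left out. Before LPS, 1 call was left without KO replicate 1 or 2 or SA replicate 4, and 2 were left without SA replicate 1 or 2. HLA-F lost its call without LPS in 26 of the 32 fits that left out 1 library. On the deposited scale HLA-E alone was called without LPS, at 0.53 (limma adjusted p = 4.40e-04), and after LPS B2M was not called, at 0.53 (limma adjusted p = 6.26e-02). Fits on only the KO and SA groups called 1 of the 9 without and 0 after LPS.

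In HA compared with SA, HLA-E alone rose, by 0.54 without LPS (limma adjusted p = 1.08e-03), where 1.5% of all genes were called. After LPS the rise was 0.52 (limma adjusted p = 1.43e-03), where 2.02% were called, and on the deposited scale this was 0.41 and was not called (limma adjusted p = 1.04e-02). Between KO and HA, limma called 0 of the 9 without LPS (0.226% of all genes) and 0 after LPS (0.00806%). Voom called 0 in each. An unadjusted limma p below 0.05 was found for 4 of the 9 in each. Of the 12406 genes tested, 1288 without LPS and 1308 after LPS had such a p. HLA-E was higher in KO than in HA in every library without LPS, by 0.34 (95% interval 0.13 to 0.54, limma adjusted p = 0.19), which was 0.09 on the deposited scale. The KO and HA libraries did not overlap in 4.98% of all genes tested. TAP1 differed by 0.95 (95% interval 0.35 to 1.55, limma adjusted p = 0.22) and HLA-F by 1.21 (95% interval 0.39 to 2.04, limma adjusted p = 0.26). When SA LPS replicate 1 was left out of the shared fit, TAP1 was called between KO and HA without LPS (0.95, limma adjusted p = 9.49e-03).

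In the shared fit none of the 9 genes passed the test for a response to LPS within 3 hours. Limma called 0 of the 9 in each of WT (0.25% of all genes), KO (0.58%), HA (0.403%) and SA (0.492%). At an unadjusted limma p below 0.05 there were 0, 0, 1 and 0 of the 9 in these lines. Of the 12406 genes tested, 200, 673, 591 and 1222 had such a p. Voom called 0 in each line. TAP1 had the largest difference in WT and HA and was higher in all 4 pairs of WT, by 0.37, and of KO, by 0.58. In the fit with the replicate block TAP1 rose in WT (limma adjusted p = 7.11e-03), as 1 of the 9 genes (1.02% of all genes), and in KO 0 of the 9 passed (0.935% of all genes; TAP1 limma adjusted p = 3.47e-02). In HA, TAP1 was higher by 0.74 (limma adjusted p = 0.72), with all 4 libraries after LPS above those without. These HA groups did not overlap in 3.49% of all genes tested. In SA, TAP1 differed by 0.31, and by 0.79 without SA LPS replicate 1 (limma adjusted p = 0.10). With library weights, added after seeing the data, TAP1 passed in HA and SA, at 0.80 and 0.73 (limma adjusted p = 4.31e-03 and 1.25e-03). In WT and KO that fit gave 0.40 and 0.44 without passing (limma adjusted p = 0.175 and 0.236). The LPS difference of HLA-F was 0.62 in KO (95% interval -0.21 to 1.44) and -0.05 in WT (95% interval -0.88 to 0.77).

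The LPS response of each line was also compared with that of WT. Limma called 0 of the 9 genes in KO (0.00806% of all genes), HA (0%) and SA (0%), with 0 calls by voom in each. At an unadjusted limma p below 0.05 there were 0 of the 9 in each. Of the 12406 genes tested, 175, 142 and 457 had such a p in KO, HA and SA. The KO response minus the WT response was 0.21 for TAP1 (95% interval -0.65 to 1.06) and 0.67 for HLA-F (95% interval -0.50 to 1.83). For HLA-E the interval was -0.18 to 0.39.

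Within groups, some of these genes moved with a property of the library. The library with the fewest genes detected at equal depth had the lowest HLA-C and TAP2 of its group in 7 of 8 groups, the lowest HLA-B and TAP1 in 6, and the highest TAPBP in 7. For HLA-E and B2M it was the lowest in 1 of 8 groups. In every group the library with the fewest genes detected also had the lowest share of reads on ribosomal protein genes. These counts therefore cannot tell the properties apart. In SA LPS replicate 1, TAP2 had 218 normalized counts and TAPBP 17262, compared with 1820 to 2026 and 4191 to 4737 in the other 3. The share of reads on ribosomal protein genes was 13.21% to 15.35% in WT and lower in KO (9.23% to 12.27%) and HA (9.08% to 12.57%), so this share moved with the lines. Its part in the differences from WT was not tested. The number of genes detected, used as a covariate above, had a median of 16901 in WT. The medians of KO and HA were 16783 and 16075. With this covariate HLA-E, TAP1 and HLA-F in KO had differences of 0.88, 1.44 and 1.78 without LPS, and in HA those of TAP1, TAP2 and TAPBP moved from 0.40, -1.13 and 0.87 to 0.72, -0.35 and 0.50.

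**Figure D4:**
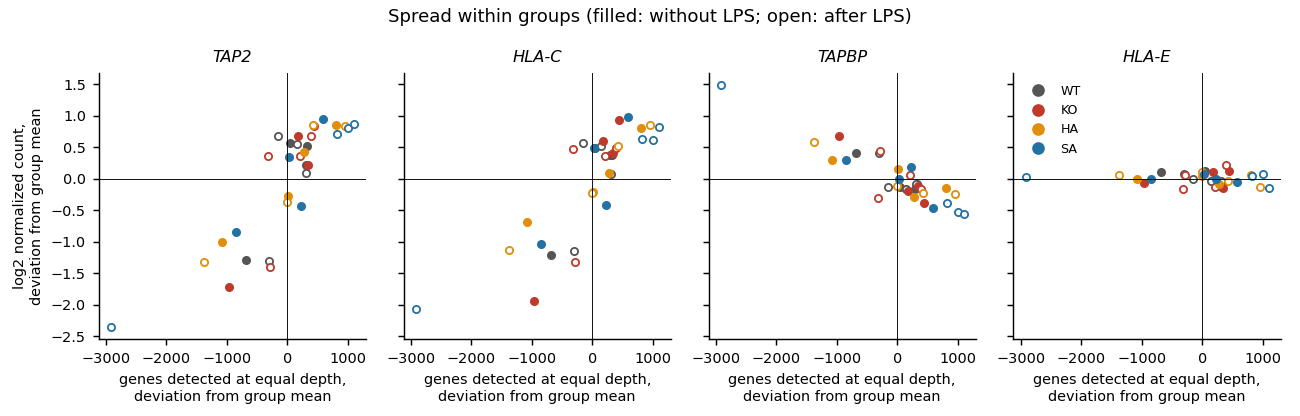
Deviation of each library from its group mean in log2 normalized count (vertical axis) against its deviation in the number of genes detected at equal depth (horizontal axis), for TAP2, HLA-C, TAPBP and HLA-E. TAP2 and HLA-C were low and TAPBP high in libraries with few genes detected, while all points of HLA-E lie close to 0.

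Other steps of the pathway were read from lists. Of 7 genes of peptide generation and trimming, 2 rose in KO and 0 fell (2.9% of all genes tested were called), with a list median of 0.30. PSMB9 encodes a subunit of the immunoproteasome. Its gene overlaps TAP1 on the opposite strand, and the strand setting of the counting is not given in the sources used here, so reads of the overlap cannot be told apart. The same holds for other members that overlap genes on the opposite strand, among them TAP1 with PSMB8-AS1, HLA-F with HLA-F-AS1 and TAPBP with ENSG00000289100. HLA-B and NLRC5 also overlap genes on the opposite strand, and HLA-B overlaps MIR6891 and DHFRP2 on its own strand. WT held 1297 ± 128 of its normalized counts (SD, n = 4), KO 2654 ± 424, HA 1891 ± 144 and SA 1425 ± 165. It rose in KO by 1.02 (limma adjusted p = 9.62e-04) and after LPS by 1.13 (limma adjusted p = 2.46e-04). In HA it was higher by 0.55 (limma adjusted p = 8.99e-02). PSME1, a subunit of the proteasome activator PA28, rose in KO by 0.46 (limma adjusted p = 9.21e-03) and after LPS by 0.58 (limma adjusted p = 6.86e-04). In HA it passed the test after LPS, at 0.51 (limma adjusted p = 4.26e-03). Of 5 constitutive proteasome counterparts, 0 passed in the 6 comparisons with WT, in which 0% to 3.47% of all genes were called, and their difference from the immunoproteasome genes was not tested. Of 10 chaperones and peptide editors of the endoplasmic reticulum, 0 passed in these 6 comparisons, with medians of 0.17 in KO and in HA.

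Of 15 transcription factors that act at class I promoters, 3 rose in KO (2.9% of all genes tested) and 2 in HA (2.52%) without LPS. In SA 0 rose (0%), and 0 fell in any of the 3 lines. After LPS 3 rose in KO (3.47%), 3 in HA (2.02%) and 0 in SA (0%) compared with WT. Without LPS, STAT2, which acts in type I interferon signalling, rose by 1.64 in KO and 1.45 in HA (limma adjusted p = 2.38e-04 and 1.38e-03). Its differences after LPS, 1.10 in KO and 0.80 in HA, did not pass (limma adjusted p = 1.27e-02 and 0.115). IRF1, which binds interferon response elements, rose in KO without LPS by 0.84 (limma adjusted p = 2.13e-03). After LPS it was higher by 1.75 in KO (limma adjusted p = 5.18e-08) and by 1.16 in HA (limma adjusted p = 7.41e-05). IRF1 rose after LPS in all lines, by 0.97 in WT, 1.88 in KO, 1.43 in HA and 1.41 in SA (limma adjusted p from 4.35e-08 to 3.07e-03). IRF2 rose after LPS in KO compared with WT, by 1.28, and in HA, by 0.80 (limma adjusted p = 1.84e-05 and 8.41e-03). In SA after LPS, IRF1 was higher than WT by 0.65 and IRF2 by 0.53 (limma adjusted p = 0.825 for both). Every SA library lay above every WT library for both genes, where these groups did not overlap in 2.61% of all genes tested. Of the 15 factors, 11 were higher in SA after LPS, with a median of 0.26.

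Among 12 other class I-like heavy chains, of which 8 passed the filter on low counts, MICB, a stress ligand of the NKG2D receptor, rose in KO by 0.81 (limma adjusted p = 9.26e-03) and in HA by 0.92 (limma adjusted p = 3.35e-03). It was the only gene of that list called in the 6 comparisons with WT, in which 0% to 3.47% of all genes were called. Of 8 LILR family receptors of myeloid cells, listed for class I binding although not all of them bind class I molecules, 7 were found and 4 tested. LILRA2 fell by 0.69 in HA (limma adjusted p = 5.64e-03), from a WT level of 478 ± 64.0 to 294 ± 31.0 normalized counts (SD, n = 4), and by 0.67 after LPS (limma adjusted p = 9.19e-03). LILRB2, an inhibitory receptor that binds class I molecules, fell by 1.61 in HA after LPS (limma adjusted p = 8.36e-04). In KO 0 of these 4 passed, without LPS (2.9% of all genes tested) and after LPS (3.47%). After LPS, LILRB2 and LILRA2 differed from WT by -1.03 and -0.60 in KO (limma adjusted p = 3.09e-02 and 1.56e-02). Every KO library lay below every WT library for both, while 2 of the 4 genes were higher in KO. After LPS, KO and WT libraries did not overlap in 13.9% of all genes tested.

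Markers of monocytic cells differed between lines as well. Of the 12 markers, 3 rose in KO (2.9% of all genes tested) and 1 in HA (2.52%) without LPS, and 0 fell. By sign, 8 of the 12 were higher in KO and 7 in HA, with medians of 0.20 and 0.11. CD33 differed by -0.46 in KO and -0.34 in HA, and ITGAM by -0.54 and -1.07, without passing the test. The summed counts of the 12 lay between 18360 and 20895 in WT libraries, between 27743 and 41149 in KO, between 27278 and 35074 in HA and between 17545 and 18373 in SA. Such sums weigh abundant markers most, and LYZ had the highest mean of the 12, at 11561 over all libraries. LYZ, which encodes lysozyme, averaged 4851 normalized counts in WT, while KO averaged 18560 and HA 14954, and it rose by 1.89 in KO and 1.62 in HA (limma adjusted p = 4.25e-04 and 3.20e-03). CD14 rose in KO by 1.66 (limma adjusted p = 6.54e-05), and its difference after LPS was 0.13. After LPS 1 marker rose in KO and 1 fell (3.47% of all genes tested were called), CD33, by 0.73 (limma adjusted p = 4.74e-03). In HA after LPS 1 rose and 2 fell (2.02% of all genes tested were called), CD14 by 1.37 and ITGAM by 1.41 (limma adjusted p = 1.13e-03 and 2.64e-03). These markers were named after their values had been seen. Of 5 B cell markers the summed counts were 69.1 to 105 in WT and 150 to 211 in KO, with PAX5 up by 1.70 in KO (limma adjusted p = 2.05e-03) and MS4A1 at no more than 3.29 counts in any library. The 5 natural killer cell markers summed to 120 to 359 counts over all libraries, nearly all of it NKG7. Epithelial markers did not pass 35.9 summed counts in any library, and fibroblast markers held 24.6 to 31.8 in WT and 0 to 6.41 in KO. The part of these shifts in the class I differences was not tested.

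Over the 8 group means, TAP1, HLA-F, HLA-B, B2M and HLA-E followed the mean profile of the 9 genes most closely, with correlations of 0.969, 0.961, 0.958, 0.954 and 0.941. Each gene is part of that mean, which raises its correlation by construction. HLA-C had 0.853, TAP2 0.606, TAPBP 0.355 and NLRC5 -0.06. Among genes outside the 9, those most like this profile included SCARB2, a lysosomal membrane protein (0.987), CNDP2, a cytosolic peptidase (0.984), and PDGFRL (0.979). The 8 means come from 4 lines, each without and after LPS, and these genes were chosen for the likeness, which is given as a description.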

How the data were processed

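RNA of 32 THP-1 libraries was sequenced with a 3′ kit. The methods state that the authors used Bbduk for trimming, STAR for mapping (GRCh38), HTSeq-count for counting and DESeq2 for normalization and testing. The values the authors deposited are DESeq2-normalized counts, which matched size factors computed within each line. Dividing by the value of 1 read returned whole reads in 100.000% of values (tolerance 0.05 reads). Size factors over all 32 libraries were then computed by median of ratios on genes with a read in every library.

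Limma 3.58.1 (R 4.3.3) was run on genes whose deposited counts averaged at least 10, as log2(normalized count + 1), in 1 fit of 8 group means, eBayes with trend, Benjamini-Hochberg adjustment over 12406 genes and a limit of 0.01. The script was tested on simulated data. A spike-in set of 92 rows held 1 read in all and was left out. Same-numbered libraries of WT and KO, with and without LPS, deviated together (lowest correlation of deviations across genes 0.124), so these were treated as pairs; those of HA and SA were not. Intervals cover the spread between libraries only. Gene positions are from GENCODE on GRCh38; promoter sequences are from RefSeq.

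The 9 genes and all lists were chosen with earlier results of these data known. All 9 are named; from other lists up to 4 genes called in a comparison with WT, by largest change, and the 5 genes most like the 9. Some genes that these rules name are not reported here. Alternatives were scale, pseudocount, filter, replicate block, libraries fitted, and each library left out; voom, library weights and genes detected as a covariate were added after seeing the data.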

Additional observations from a re-analysis of the deposited data

Results flagged for a closer look

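In 72 groups of 4 values (9 genes in 8 groups), 12 had a highest or lowest library that stood apart by Dixon's 95% limit. Chance flags about 1 in 20 of independent groups. Some of these genes moved together within groups, as HLA-C and TAP2 did (correlation 0.99), so the 12 flags cannot be set against that rate. SA LPS replicate 1 accounted for 4 of these, with 286 normalized counts of HLA-C (others 1846 to 2126), 315 of TAP1 (others 1169 to 1205), 218 of TAP2 (others 1820 to 2026) and 17262 of TAPBP (others 4191 to 4737). Replicate 3 of WT or KO accounted for 5. HLA-C had 615 counts in WT replicate 3 (others 1841 to 1988) and 1001 in KO LPS replicate 3 (others 3244 to 3548). HLA-B had 6620 in KO LPS replicate 3 (others 11745 to 12577). TAPBP had 6017 in WT replicate 3 (others 4046 to 4266) and 6535 in WT LPS replicate 3 (others 4410 to 4663). TAPBP also had 11739 counts in HA LPS replicate 1 (others 6663 to 7307). HLA-F stood apart upwards, with 625 in KO replicate 2 (others 246 to 287) and 283 in HA replicate 1 (others 101 to 121). None of the 12 was a value of HLA-E, B2M or NLRC5.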

How the results depend on the processing

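Counts of the 9 genes called stayed within 1.5 times of those reported under the pseudocount of 5, TMM factors, voom and the replicate block over all 32 libraries. Fits on only the groups compared gave 1 call in KO without LPS, 0 in HA without and after LPS, 1 and 0 in KO against SA and 0 and 0 in HA against SA; with the replicate block as well they gave 7 in KO after LPS, 1 for LPS in WT, 1 for LPS in HA, and 0 in HA against WT, KO against SA and HA against SA, groups that their numbers do not pair. On the deposited scale there was 1 call in KO against SA without LPS and 0 in HA against SA after LPS, and with no filter 2 in KO against SA without LPS. The covariate gave 5 in KO after LPS, 2 in HA without and after LPS and 2 in HA against SA without and after LPS. Library weights gave 5 in KO after LPS, 3 in HA without and after LPS, 1 for LPS in HA and in SA, 1 and 2 in KO against HA and 2 in HA against SA after LPS. Leaving out each library gave 1 to 3 calls in KO, 3 to 4 in KO after LPS, 1 to 5 in KO against SA, 2 to 4 in the same after LPS and 0 to 1 in KO against HA. With WT replicate 3, KO replicate 1 or KO replicate 2 left out, HLA-E alone stayed called in KO without LPS. The deposited scale shifted a typical gene by -0.09 in KO, 0.15 in HA and 0.26 in SA. Over all genes, the 360 calls in KO were 179 to 1075 under these settings, the 430 in KO after LPS 300 to 1336, the 313 in HA 8 to 2633, the 250 in HA after LPS 7 to 1163, the 355 in KO against SA 0 to 1134 (363 after LPS, 0 to 1192), the 186 in HA against SA 92 to 478 (251 after LPS, 1 to 1251) and the 28 in KO against HA 0 to 134, and LPS in WT, KO, HA and SA gave 31, 72, 50 and 61 calls, with 14 to 126, 21 to 123, 33 to 89 and 3 to 181. No called value changed sign. The planned fits with edgeR and DESeq2 were not run. Each result rests on 4 libraries per group and 1 line per genotype.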
